A study of Mus musculus with 12 samples.

Results

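Cytosolic ribosomal protein genes were followed over 4 populations of CD4 T cells from the spleens of MRL/Faslpr mice, a strain that lacks functional Fas and develops lupus-like disease. Members were all probe sets annotated with a single gene symbol of the form Rpl or Rps plus a number, or Rplp0 to Rplp2, or Rpsa; the Rps6k kinases were left out. The rule found 104 probe sets for 48 genes among the 45037 probe sets tested, 48 probe sets for 26 genes of the large subunit and 56 probe sets for 22 genes of the small subunit. It left aside 110 probe sets that carry a ribosomal protein symbol together with other symbols, mostly pseudogenes or predicted genes; Rpl3, Rpl5, Rpl10 and Rplp1 are measured only there.

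The 12 arrays form 4 groups of 3, all from female MRL/Faslpr mice and all sorted as TCRb+ CD4+ B220- spleen cells. The Naive group (CD62Lhi CD44lo) came from mice aged 6 to 8 weeks. The effector groups were CD44+ cells of mice aged 16 to 24 weeks, sorted as CD62Lhi PSGL1hi, CD62Llo PSGL1hi or CD62Llo PSGL1lo, where PSGL1 is the selectin ligand encoded by Selplg and CD62L is L-selectin. Every group carries the Faslpr mutation and no wild-type strain was included, and cell population and age of the mice cannot be told apart in any comparison with Naive. The titles call the arrays technical replicates and the design text speaks of 3 independent sorts, so the spread between arrays, and every p below, may be partly technical. For CD62Llo PSGL1hi the description of the samples names another gate (CD62Lhi PSGL1lo); titles and design text were followed. Neither the number of mice per sort nor pooling is given in the sources used here.

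Cytosolic ribosomal proteins are the protein part of the ribosome. The small subunit reads the mRNA and the large subunit joins amino acids, with a stalk that calls in the elongation factors. Their mRNAs are among the most abundant of a cell, and most begin with a run of pyrimidines, the 5' terminal oligopyrimidine (TOP) tract, through which mTORC1 and the RNA-binding protein Larp1 control translation. Resting naive T cells are known to hold mRNAs of the translation machinery in readiness and to raise ribosome production, under Myc and mTORC1, once activated.

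The start of a TOP mRNA is visible in its gene. These are the 30 bases before and the 20 bases from the annotated start on, on the transcript strand, for the members on which the results below turn, for Rps6 (the substrate of S6 kinase) and for the paralogue pairs Rps27 with Rps27l and Rpl22 with Rpl22l1; sequences and coordinates are from RefSeq, mouse build GRCm38.p6. Capitals mark the longest run of a C followed by at least 4 further C or T, read from within 10 bases of the annotated start. Bases farther before the start are not marked, even where they continue the run. Rpl41, Rps25 and Rpsa, among the members lowest relative to Naive, have no such run and stand in lower case.
Rpl12, chr2:32961682-32961731, plus strand: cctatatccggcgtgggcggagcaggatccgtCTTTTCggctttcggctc
Rpl35, chr2:39005112-39005161, minus strand: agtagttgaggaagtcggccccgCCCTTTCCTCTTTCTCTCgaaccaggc
Rpl41, chr10:128549149-128549198, minus strand: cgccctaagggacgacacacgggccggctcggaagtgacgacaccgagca
Rps9, chr7:3704011-3704060, plus strand: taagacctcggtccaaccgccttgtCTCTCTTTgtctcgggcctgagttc
Rps10, chr17:27635225-27635274, minus strand: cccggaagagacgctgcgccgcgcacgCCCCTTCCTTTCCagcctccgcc
Rps18, chr17:33955646-33955695, minus strand: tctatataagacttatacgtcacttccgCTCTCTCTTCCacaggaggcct
Rps25, chr9:44407684-44407733, plus strand: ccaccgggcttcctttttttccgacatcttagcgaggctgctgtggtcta
Rpsa, chr9:120127736-120127785, plus strand: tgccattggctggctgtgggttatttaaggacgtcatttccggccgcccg
Rps6, chr4:86857348-86857397, minus strand: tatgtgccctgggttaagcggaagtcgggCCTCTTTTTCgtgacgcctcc
Rps27, chr3:90213629-90213678, minus strand: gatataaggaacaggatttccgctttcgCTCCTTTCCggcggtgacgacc
Rps27l, chr9:66946056-66946105, plus strand: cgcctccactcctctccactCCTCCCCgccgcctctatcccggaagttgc
Rpl22, chr4:152324406-152324455, plus strand: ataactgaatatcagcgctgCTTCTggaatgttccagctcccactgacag
Rpl22l1, chr3:28805478-28805527, plus strand: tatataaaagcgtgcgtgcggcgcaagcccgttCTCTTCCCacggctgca

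In 10 of these 13 windows the tract lies across or near the annotated start, from the 18 bases of Rpl35 to the 5 of Rpl22. The other 3 windows have none. The run of C and T in Rps25 begins farther before the start than the rule allows. Rps27l and Rpl22 have 2 annotated promoters each, and a promoter with a tract was chosen for printing. Their marked stretches of 7 and 5 bases begin 10 bases before the annotated start and end before it. In Rps27l the run of C and T itself begins farther before the start, as in Rps25. Its part within 10 bases of the start met the rule and is marked, while that of Rps25 was too short. Of the 48 member genes, 42 are in the promoter table. A tract found by the rule for capitals, on the transcript strand, was present in 27 of the 42 (64.3%), against 34.4% of all 27025 genes in the table. The motif CCGGAAG, bound by GABPA and other ETS factors and searched on both strands of the 300 bases around the start, was present in 20 (47.6%), against 9.9% of all genes. AAGATGGC, the core bound by YY1, was present in 4 (9.5% against 3.2%), and TATAAA, the TATA box, in 6 (14.3% against 15.7%). CCGGAAG ends and AAGATGGC begins with AAG, so matches to these motifs can share bases. These are descriptions of letters, and the presence of the tract went with no visible difference in level: per gene, the median log2 difference of the effector groups from Naive was -0.18 in the 27 genes with a tract and -0.19 in the 15 without.

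Values are ratios: each deposited value is the signal of a probe set on one array divided by the median of that probe set over the 12 arrays, so 1 is the middle of the series for every probe set, and neither brightness nor levels of different genes can be compared. Over the 3 Naive arrays the median log2 ratio of the 104 probe sets was 0.18, 0.13 and 0.04. It was -0.03, -0.02 and -0.05 on the CD62Lhi PSGL1hi arrays and 0.01, -0.02 and -0.08 on the CD62Llo PSGL1hi arrays. On the CD62Llo PSGL1lo arrays it was 0.02, -0.37 and 0.02. The ribosomal protein probe sets thus lay highest on the Naive arrays and lowest on a single array, CD62Llo PSGL1lo replicate 2, while the other effector arrays lay close to each other.

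**Figure D1:**
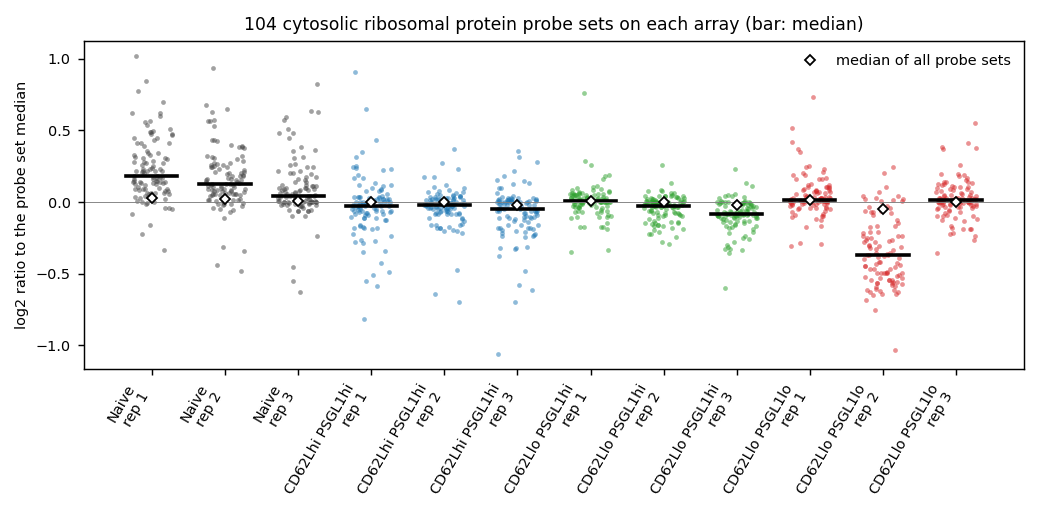
Log2 ratio to the probe set median (vertical axis) of the 104 cytosolic ribosomal protein probe sets on each of the 12 arrays; each point is 1 probe set, the bar is their median and the diamond the median of all 45037 probe sets. The member medians of the Naive arrays lie between 0.04 and 0.18, and that of CD62Llo PSGL1lo replicate 2 lies at -0.37, where all probe sets have a median of -0.05.

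That array stood apart before any comparison. It was the lowest of the 12 for 75 of the 104 members (72.1%), against 18.6% of all probe sets. The array's control probe sets for 18S rRNA read far higher there than elsewhere, although the labels say that cDNA was made from poly(A) RNA: the 5' control had a log2 ratio of 2.58 and the middle one 1.63, against -0.73 to 0.67 on the other 11 arrays. The 3' control read 0.47 and the beta-actin controls between -0.11 and -0.05. Within CD62Llo PSGL1lo the median SD of the members on the log2 scale was 0.24, against 0.07 to 0.09 in the other groups. Why this array stood apart was not tested. The medians of its group depend on it: the members' median log2 difference from Naive was -0.25 with all arrays and -0.10 without replicate 2. The members' counts and medians in each comparison with this group are therefore given also without replicate 2. Single members are given without it only where stated. The other probe sets and gene lists below are given with all arrays only. In sorted bulk samples, fewer cells of a type and less RNA per cell cannot be told apart.

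Against Naive, members moved mostly downward. With limma on all 45037 probe sets (Benjamini-Hochberg adjusted p under 0.05), 23 of 104 were lower and 1 higher in CD62Llo PSGL1lo, 14 lower and 0 higher in CD62Llo PSGL1hi, and 18 lower and 3 higher in CD62Lhi PSGL1hi. Over all probe sets 20.1%, 17.3% and 17.3% passed in either direction, 10.6%, 8.16% and 8.66% were lower, and 9.53%, 9.1% and 8.6% were higher. The shares of members that were lower were 22.1%, 13.5% and 17.3%, so the total called was near the background and its direction was not. The median log2 difference of the members was -0.25, -0.17 and -0.16 in the same order, against -0.05 for all probe sets in each comparison. By the F test over the 4 groups 20 of 104 members (19.2%) passed, against 23.7% of all probe sets. The 3 comparisons share the Naive arrays and do not count as independent of each other.

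Without CD62Llo PSGL1lo replicate 2, 13 members were lower and 4 higher in CD62Llo PSGL1lo, and the median difference was -0.10; 14 of the calls were shared with the fit on all arrays. Of all probe sets 20.2% were then called and 9.19% were lower, so the members' total was below the background and their lower calls not far above it. The spread is estimated over all arrays, and without that array the other comparisons made more calls, 24 lower and 2 higher in CD62Llo PSGL1hi and 31 lower and 3 higher in CD62Lhi PSGL1hi, against 9.54% and 9.97% of all probe sets lower and 20.2% and 19.7% in either direction. The count for CD62Llo PSGL1lo fell to 11 without Naive replicate 2 and to 13 without Naive replicate 1. The shares of all probe sets called in these last fits are not given here.

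Array by array, all 3 Naive values lay above all 9 effector values in 35 members (33.7%) of 21 genes, against 9.23% of all probe sets. The reverse order, Naive below all 9, occurred in 0 members, against 7.02% of all probe sets. Naive had the highest mean of the 4 groups in 87 members and the lowest in 4, orders whose share of all probe sets is not given here. All probe sets also leaned toward Naive. In CD62Llo PSGL1lo, CD62Llo PSGL1hi and CD62Lhi PSGL1hi, 27361, 27177 and 26833 of 45037 probe sets had negative differences from Naive. Among the 104 members these were 96, 94 and 93. In none of the 6 comparisons between groups did 75 members (72.1%, against 70% of all probe sets) pass the test, nor 30 of the 48 genes on any of their probe sets. The share of all genes without a call is not given here. That a member missed the threshold does not show that its levels were equal, since the median standard error of a log2 difference was 0.13.

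**Figure D2:**
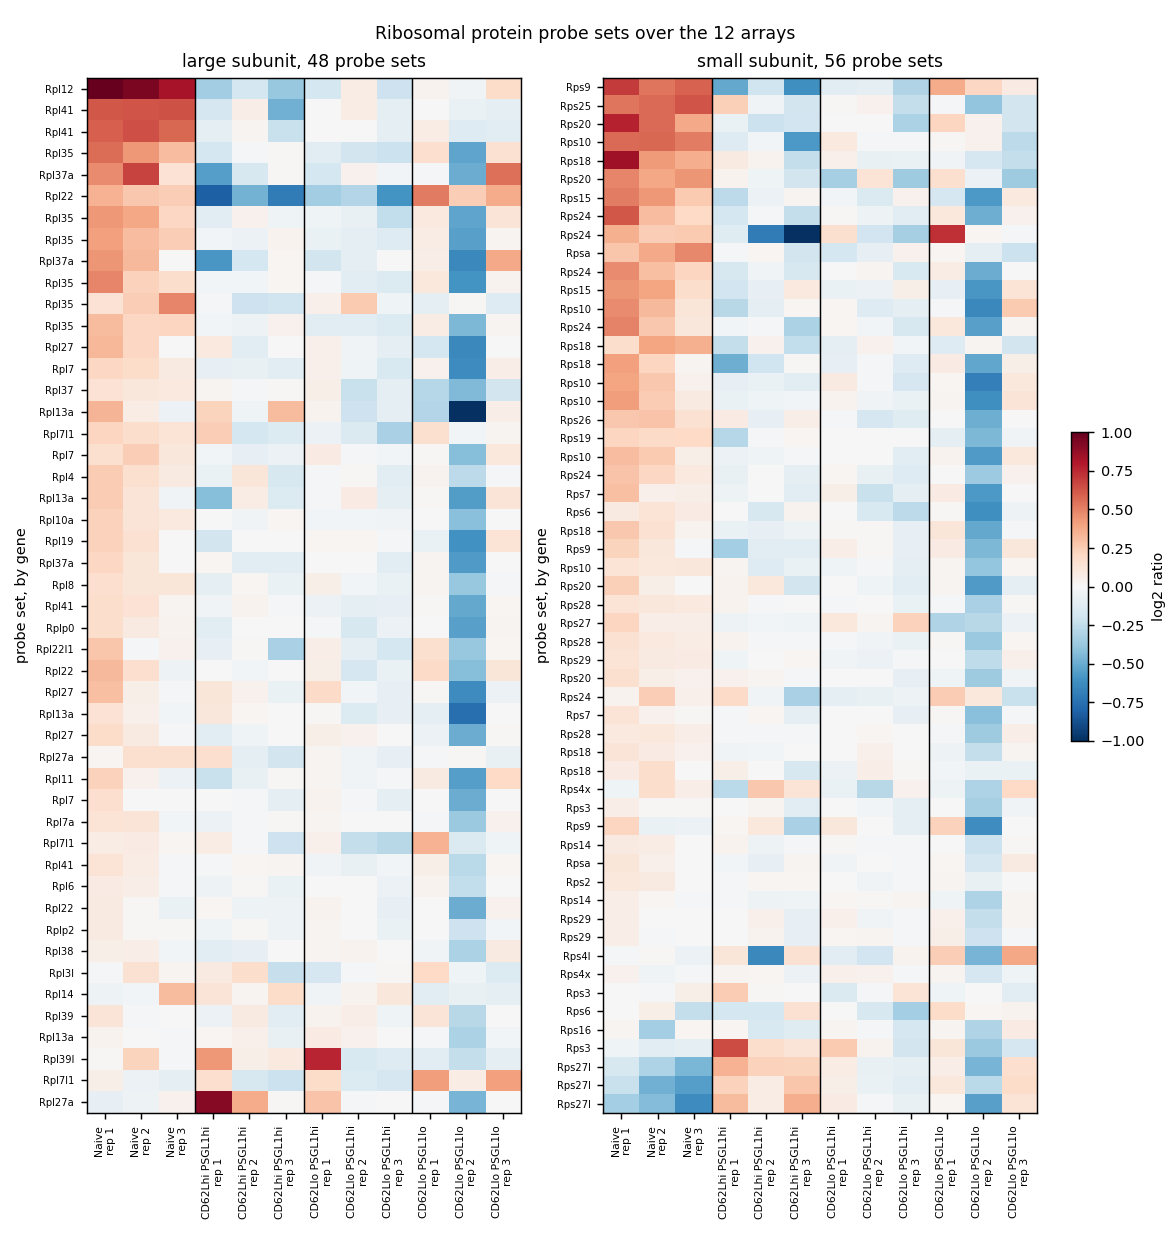
Log2 ratio of each member probe set (rows, named by gene, ordered within subunit by Naive minus effector mean) on the 12 arrays (columns); the colour scale is cut at -1 and 1. The Naive columns are red in most rows, Rps27l runs the other way, and CD62Llo PSGL1lo replicate 2 is blue in most rows, the lowest array in 75 of 104.

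Among large subunit genes the widest difference was that of Rpl12, which forms the base of the stalk together with the P proteins. Its ratios were 2.03, 1.92 and 1.77 in Naive, 0.785, 0.885 and 0.770 in CD62Lhi PSGL1hi, 0.887, 1.05 and 0.867 in CD62Llo PSGL1hi, and 1.02, 0.976 and 1.14 in CD62Llo PSGL1lo. The Naive arrays were all higher than any effector array, and replicate 2 of CD62Llo PSGL1lo did not stand out. Relative to Naive, Rpl12 was 2.34-fold lower in CD62Lhi PSGL1hi (log2 difference -1.23 ± 0.11 SE, limma adjusted p = 1.63e-06). It was 2.04-fold lower in CD62Llo PSGL1hi (-1.03, limma adjusted p = 8.63e-06) and 1.82-fold lower in CD62Llo PSGL1lo (-0.87, limma adjusted p = 3.43e-05).

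Rpl41, the shortest ribosomal protein, fell on 2 of its 4 probe sets. The probe set 1433530_at read 1.54, 1.55 and 1.56 in Naive and between 0.718 and 1.05 on the 9 effector arrays. Its log2 differences from Naive were -0.82 in CD62Lhi PSGL1hi, -0.64 in CD62Llo PSGL1hi and -0.68 in CD62Llo PSGL1lo (limma adjusted p = 0.000185, 0.00153 and 0.000695). The probe set 1454639_x_at gave -0.70, -0.64 and -0.66. The other 2, 1422623_x_at and 1455578_x_at, gave differences between -0.28 and -0.05, none of which passed.

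Rpl35, a protein at the exit of the nascent chain tunnel, has 6 probe sets, and all of them had negative differences in each effector group. On 1416243_a_at the Naive ratios were 1.47, 1.35 and 1.24 and the effector ratios lay between 0.694, on CD62Llo PSGL1lo replicate 2, and 1.13, with no overlap. The log2 differences were -0.49 in CD62Lhi PSGL1hi, -0.60 in CD62Llo PSGL1hi and -0.50 in CD62Llo PSGL1lo (limma adjusted p = 0.0433, 0.0153 and 0.0353). Only this probe set of Rpl35 passed in all 3 comparisons.

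The stalk proteins and the rest of the large subunit varied less. Rplp0, the stalk's anchor, read 1.13, 1.06 and 1.02 in Naive against 0.897 to 1.02 on 8 effector arrays and 0.685 on CD62Llo PSGL1lo replicate 2. Rplp2 ranged from 0.867 to 1.07 over all 12 arrays. Neither passed in any comparison, with adjusted p from 0.196 to 0.988. Rpl11, which with the 5S rRNA binds Mdm2 and ties ribosome assembly to p53, gave differences from Naive of -0.16, -0.08 and -0.16 (limma adjusted p = 0.58, 0.802 and 0.575). Rpl38, known for translation of Hox mRNAs, gave -0.09, -0.01 and -0.12. Rpl13a, released from the ribosome in the response to interferon gamma in myeloid cells, passed on none of its 4 probe sets without a block.

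**Figure D3:**
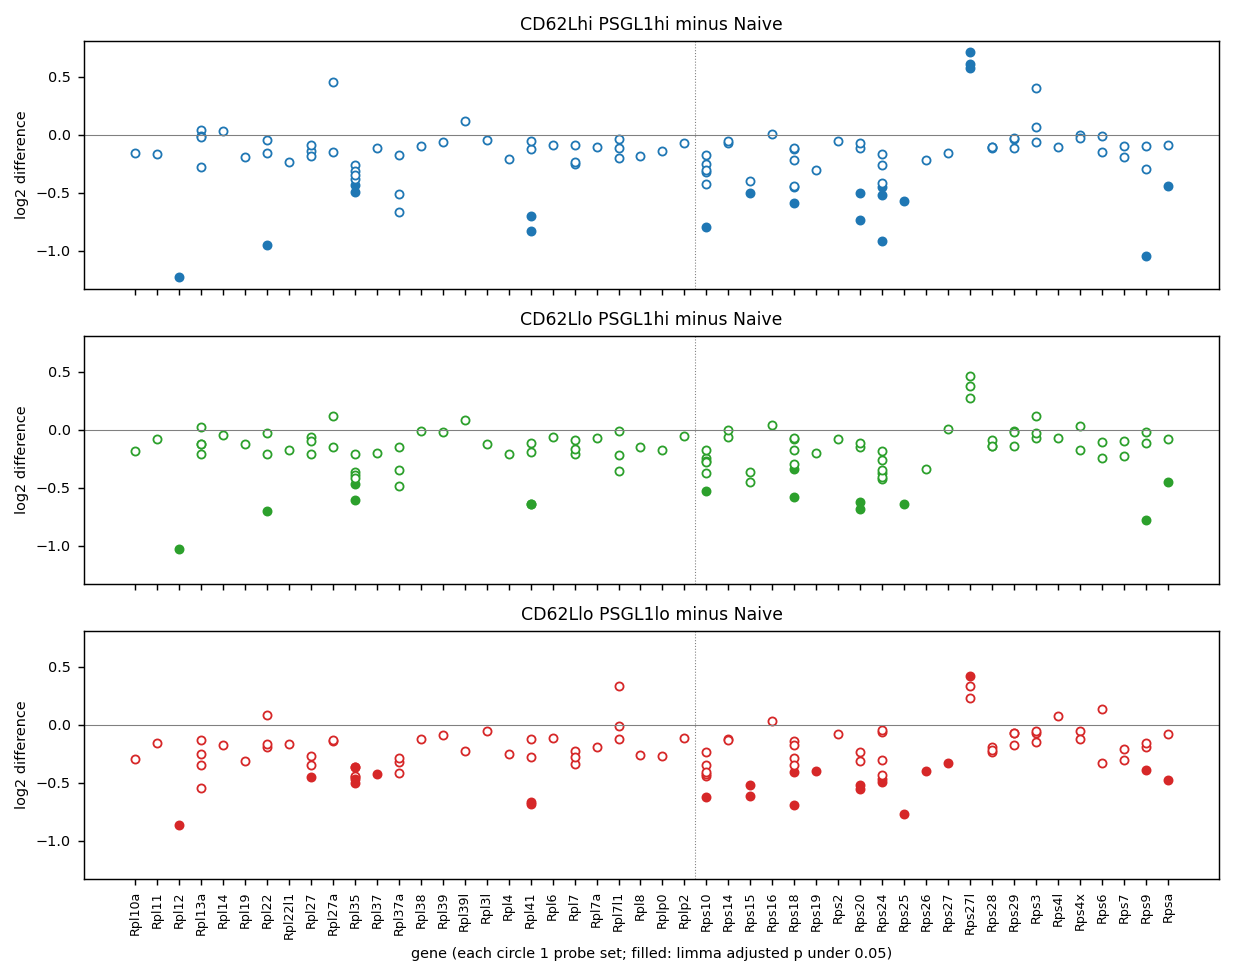
Log2 difference of each effector group from Naive (vertical axis, 1 panel per group) for every member probe set, by gene (large subunit left of the dotted line, small subunit right); filled circles have a limma adjusted p under 0.05. Most circles lie below 0, Rpl12 reaches -1.23, and Rps27l lies above 0 in all panels.

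In the small subunit, Rps9 is a protein of the mRNA entry side important for decoding accuracy. On 1 of its 3 probe sets the array values separated the effector groups from Naive and CD62Llo PSGL1lo from the other effector groups. On 1426958_at the ratios were 1.62, 1.45 and 1.51 in Naive and 0.703, 0.872 and 0.654 in CD62Lhi PSGL1hi. They were 0.925, 0.940 and 0.814 in CD62Llo PSGL1hi and 1.29, 1.15 and 1.06 in CD62Llo PSGL1lo. CD62Llo PSGL1lo lay between Naive and the PSGL1hi groups with no overlap, and the PSGL1hi groups overlapped each other. Its log2 differences from Naive were -1.05 ± 0.12, -0.77 ± 0.12 and -0.39 ± 0.12 SE (limma adjusted p = 2.19e-05, 0.000335 and 0.0345). The last was lost in 6 of 17 alternatives, with adjusted p up to 0.172. The gene's other 2 probe sets gave differences from Naive between -0.29 and -0.02, none passing. Between CD62Llo PSGL1lo and CD62Llo PSGL1hi the 3 probe sets gave differences from -0.14 to 0.39, none passing. The 0.39 was that of 1426958_at (limma adjusted p = 0.0694).

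Rps25, needed by several viral and cellular internal ribosome entry sites, is measured by 1 probe set. It read 1.45, 1.48 and 1.54 in Naive and between 0.761 and 1.18 on the effector arrays. The log2 differences were -0.57 in CD62Lhi PSGL1hi, -0.64 in CD62Llo PSGL1hi and -0.77 in CD62Llo PSGL1lo (limma adjusted p = 0.00617, 0.0028 and 0.000479). Rps10, on the beak of the small subunit, read 1.48, 1.49 and 1.42 in Naive on 1436384_at and 0.670 to 1.07 in the effector groups. This probe set gave -0.79, -0.53 and -0.62 (limma adjusted p = 0.000678, 0.013 and 0.00362), while the other 5 probe sets of Rps10 were all negative, between -0.44 and -0.17, and did not pass.

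Rps20, which sits at the head of the small subunit, fell on 2 of 4 probe sets in all 3 comparisons; on 1450417_a_at the Naive ratios were 1.71, 1.48 and 1.30 and the effector ratios 0.805 to 1.16. The differences there were -0.73, -0.68 and -0.55 (limma adjusted p = 0.00119, 0.00212 and 0.0077). Rps18, also of the head, fell on 2 of 6 probe sets, with -0.58, -0.57 and -0.69 on 1421838_at. Rpsa, known also as the laminin receptor, read 1.21, 1.30 and 1.39 in Naive and 0.862 to 1.03 in the effector groups on 1416196_at, with differences of -0.44, -0.45 and -0.47 (limma adjusted p = 0.00766, 0.00645 and 0.00372). The second Rpsa probe set, 1448245_at, stayed between 0.891 and 1.09 on all arrays and did not pass.

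Several genes were called lower in CD62Llo PSGL1lo on probe sets where replicate 2 was the lowest array. Rps19, the gene most often mutated in Diamond-Blackfan anaemia, read 1.16, 1.14 and 1.15 in Naive, 0.819 to 1.02 in the PSGL1hi groups and 0.938, 0.733 and 0.978 in CD62Llo PSGL1lo. Its difference from Naive was -0.39 with all arrays and -0.27 without replicate 2 (limma adjusted p = 0.0275 and 0.103). Rps26, which contacts the mRNA at the exit side, gave -0.40 and -0.24 (limma adjusted p = 0.037 and 0.126), and Rpl27 on 1448217_a_at -0.45 and -0.26 (limma adjusted p = 0.0426 and 0.152). The calls of these 3 genes were thus lost with that array. Rpl37 kept its call: it read 1.10, 1.08 and 1.07 in Naive and 0.820, 0.736 and 0.879 in CD62Llo PSGL1lo, a difference of -0.42 with all arrays and -0.35 without replicate 2 (limma adjusted p = 0.00637 and 0.0251). Of the genes described above, Rpl35 on 1416243_a_at also lost its call against Naive without that array (limma adjusted p = 0.0943). So did Rps9, although the array was not its lowest and its difference was as large, -0.38 against -0.39 (limma adjusted p = 0.0675).

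The members lower in all 3 effector groups numbered 12 (against 4.8% of all probe sets), from 9 genes: Rpl12, Rpl35, Rpl41, Rps9, Rps10, Rps18, Rps20, Rps25 and Rpsa. Rps15, of the head, was lower in CD62Lhi PSGL1hi (-0.50) and CD62Llo PSGL1lo (-0.62) on 1416089_at, with -0.45 in CD62Llo PSGL1hi (limma adjusted p = 0.0533). Rps6, whose phosphorylation is the usual readout of mTORC1 activity, gave -0.15, -0.24 and -0.33 on 1416142_at and -0.01, -0.11 and 0.14 on 1453466_at, none passing. Rps3, which also serves as a subunit of NF-kB, passed on none of its 3 probe sets in any comparison without a block.

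The only members called higher than Naive with all arrays and without a block were probe sets of the paralogue Rps27l. In each comparison 8 to 11 members had positive differences. Rps27l differs from Rps27 by a few residues and is a known p53 target. On its 3 probe sets the Naive ratios ran from 0.646 to 0.893 and the CD62Lhi PSGL1hi ratios from 1.05 to 1.28, with no overlap between the groups. The log2 differences of CD62Lhi PSGL1hi from Naive were 0.61 ± 0.13 on 1423254_x_at, 0.57 ± 0.14 on 1435429_x_at and 0.72 ± 0.16 SE on 1450925_a_at (limma adjusted p = 0.00372, 0.0119 and 0.00466). In CD62Llo PSGL1hi they were 0.38, 0.28 and 0.47, none passing (limma adjusted p = 0.0585, 0.224 and 0.0555). In CD62Llo PSGL1lo they were 0.42, 0.23 and 0.34, of which the first passed (limma adjusted p = 0.0312). Without CD62Llo PSGL1lo replicate 2 they were 0.56, 0.43 and 0.55, and all 3 passed (limma adjusted p = 0.00334, 0.0125 and 0.00483). The x suffix of 1423254_x_at and 1435429_x_at marks possible hybridisation to other transcripts. The 3 probe sets of this gene are not independent measurements.

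Rps27 itself, on its only probe set, read 1.16, 1.05 and 1.05 in Naive and 0.963, 0.982 and 0.971 in CD62Lhi PSGL1hi. It read 1.08, 1.02 and 1.17 in CD62Llo PSGL1hi and 0.810, 0.826 and 0.958 in CD62Llo PSGL1lo. CD62Llo PSGL1lo was lower than Naive (-0.33 ± 0.10 SE, limma adjusted p = 0.027) and lower than CD62Llo PSGL1hi (-0.33, limma adjusted p = 0.0498). The first was lost in 7 of 17 alternatives and the second in 16 of 17, without CD62Llo PSGL1lo replicate 2 in both cases. Without that array both differences were -0.30, close to their size with all arrays.

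**Figure D4:**
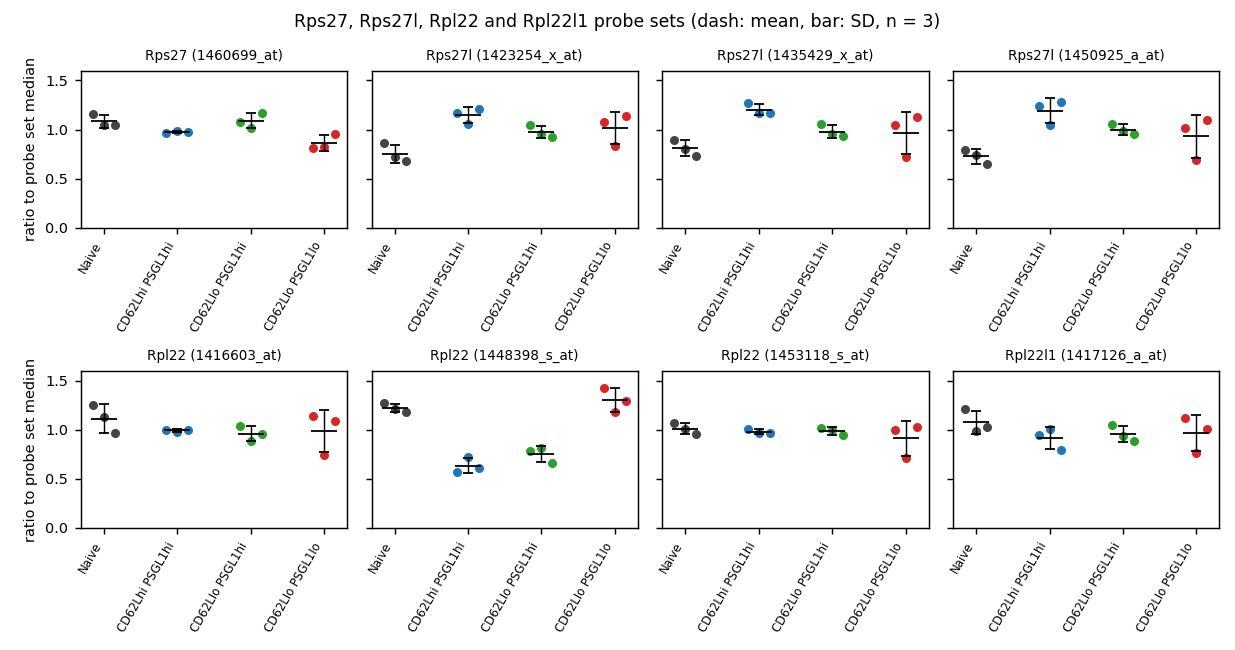
Ratio to the probe set median (vertical axis, from 0) on each array by population for the probe sets of Rps27, Rps27l, Rpl22 and Rpl22l1; points are arrays, the dash is the mean and the bar the SD (n = 3). Rps27l is lowest in Naive on all 3 probe sets, and among the 3 Rpl22 probe sets 1448398_s_at stands at 0.568 to 0.816 in both PSGL1hi groups.

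Rpl22, an RNA-binding protein of the large subunit required for the development of alpha-beta T cells, gave the widest differences between effector groups, on 1 of its 3 probe sets. On 1448398_s_at the Naive ratios were 1.27, 1.21 and 1.19. Those of CD62Lhi PSGL1hi were 0.568, 0.720 and 0.616, those of CD62Llo PSGL1hi 0.786, 0.816 and 0.661, and those of CD62Llo PSGL1lo 1.43, 1.18 and 1.29. Both PSGL1hi groups were thus low, and CD62Llo PSGL1lo overlapped Naive. The log2 difference of CD62Llo PSGL1lo was 0.79 ± 0.12 SE from CD62Llo PSGL1hi and 1.04 ± 0.12 SE from CD62Lhi PSGL1hi (limma adjusted p = 0.000459 and 2.63e-05). From Naive, CD62Lhi PSGL1hi differed by -0.95 and CD62Llo PSGL1hi by -0.70 (limma adjusted p = 4.12e-05 and 0.0006), and CD62Llo PSGL1lo by 0.09 (limma adjusted p = 0.683). The differences of both PSGL1hi groups from CD62Llo PSGL1lo and from Naive passed in all 17 alternatives that keep all probe sets. This probe set is absent from the fits with 1 probe set per gene and without suffixed probe sets, which are not among the 17.

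The other 2 Rpl22 probe sets did not show this. On 1416603_at the CD62Llo PSGL1lo difference was 0.02 from CD62Llo PSGL1hi and -0.03 from CD62Lhi PSGL1hi, and on 1453118_s_at it was -0.13 and -0.12, none passing. Which transcripts each probe set reads was not analysed here; the s suffix marks probes shared between transcripts. The paralogue Rpl22l1, whose mRNA Rpl22 is known to repress, read 1.21, 0.991 and 1.03 in Naive and between 0.767 and 1.12 in the effector groups, and no comparison passed (limma adjusted p from 0.338 to 0.998).

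The remaining paralogues passed in no comparison with all arrays and without a block. Rpl39l, a testis-enriched copy of Rpl39, ranged from 0.850 to 1.70, the highest on 1 CD62Llo PSGL1hi array, and Rpl39 from 0.824 to 1.09. Rpl3l, a muscle form of Rpl3, ranged from 0.853 to 1.15. Rps4l and the 2 probe sets of Rps4x did not pass in any comparison with all arrays, nor, without a block, did Rpl7 or Rpl7l1 on their 3 probe sets each. With replicate number as a block over the 12 arrays, Rpl7l1 was called against Naive in both directions. It was higher in CD62Llo PSGL1lo on 1452049_at (0.33, limma adjusted p = 0.0332) and lower in CD62Llo PSGL1hi on 1439780_at (-0.36, limma adjusted p = 0.0207). In these ratios a probe set without real signal also centres on 1, so a flat profile of a gene known from another tissue does not say that it was expressed.

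Among the effector groups few members passed. CD62Llo PSGL1hi against CD62Lhi PSGL1hi had 0 of 104, against 1.23% of all probe sets; 3 members, and 9.35% of all probe sets, had an unadjusted limma p under 0.05. CD62Llo PSGL1lo against CD62Llo PSGL1hi had 2 of 104, against 8.38% of all probe sets: Rpl22 (1448398_s_at) was higher and Rps27 lower. CD62Llo PSGL1lo against CD62Lhi PSGL1hi had 4 of 104, all higher, against 11.6% of all probe sets in either direction and 5.37% higher. The median difference of the members was -0.08, 0.01 and -0.07 in CD62Llo PSGL1lo against CD62Llo PSGL1hi, CD62Llo PSGL1hi against CD62Lhi PSGL1hi, and CD62Llo PSGL1lo against CD62Lhi PSGL1hi. Without CD62Llo PSGL1lo replicate 2 the first and last turned to 0.05 and 0.05, so their direction rests on that array; 1 and 5 members were then called, against 8.95% and 11.7% of all probe sets. The added call was Rpl7l1 on 1452049_at, a relative of Rpl7 with a role in ribosome assembly, which read 1.12, 0.896 and 0.860 in CD62Lhi PSGL1hi and 1.34, 1.05 and 1.33 in CD62Llo PSGL1lo; the difference was 0.37 with all arrays and 0.48 without replicate 2 (limma adjusted p = 0.107 and 0.0338).

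The 4 members higher in CD62Llo PSGL1lo than in CD62Lhi PSGL1hi were Rpl22 (above), Rps9, Rps24 and Rpl12. Rps9 differed by 0.66 ± 0.12 SE (limma adjusted p = 0.00182) and passed in all 17 alternatives. Rps24, a small subunit protein needed to process the 18S rRNA precursor, read 0.918, 0.617 and 0.479 in CD62Lhi PSGL1hi and 1.66, 1.02 and 0.984 in CD62Llo PSGL1lo on 1455195_at, a difference of 0.87 ± 0.23 SE (limma adjusted p = 0.0222). It lost the call in 4 alternatives, among them without CD62Lhi PSGL1hi replicate 2, without CD62Lhi PSGL1hi replicate 3 and without CD62Llo PSGL1lo replicate 1, with adjusted p up to 0.108. The 5 other Rps24 probe sets gave -0.05 to 0.10. From Naive, 1455195_at differed by -0.91 in CD62Lhi PSGL1hi (limma adjusted p = 0.0117, passing in 16 of 17 alternatives) and by -0.04 in CD62Llo PSGL1lo. Of the 6 Rps24 probe sets, 3 were called lower than Naive in CD62Lhi PSGL1hi, 0 in CD62Llo PSGL1hi and 2 in CD62Llo PSGL1lo. Those 2 calls were lost without CD62Llo PSGL1lo replicate 2. Rpl12 differed by 0.36 (limma adjusted p = 0.0429) and lost the call in 11 of 17 alternatives, with adjusted p up to 0.166.

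The replicate numbers paired the effector arrays: in each pair of effector groups, deviations from the group means over all probe sets correlated between same-numbered arrays, by 0.14 to 0.45. With replicate number as a block over the 9 effector arrays, CD62Llo PSGL1lo against CD62Lhi PSGL1hi had 7 calls in place of 4. Rps9, Rpl22 and Rps24 kept theirs and Rpl12 did not. Rpl7l1 on 1452049_at was now called higher (0.37, limma adjusted p = 0.0403), and 3 were called lower: Rpl13a on 1433928_a_at (-0.59), Rpl27a on 1437729_at (-0.59) and Rps3 on 1455600_at (-0.46), with limma adjusted p = 0.0199, 0.019 and 0.0117. In that fit Rps24 on 1455195_at was the only member called in CD62Llo PSGL1hi against CD62Lhi PSGL1hi (0.51, limma adjusted p = 0.0349). Rps9 on 1426958_at was called in CD62Llo PSGL1lo against CD62Llo PSGL1hi (0.39, limma adjusted p = 0.0415), where Rps27 was not. The share of all probe sets called with the block is not given here.

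Probe sets of a gene often disagreed. Of the 24 genes with several probe sets, all passed in CD62Lhi PSGL1hi against Naive for 1 gene, some for 10 and none for 13. The counts were 0, 8 and 16 in CD62Llo PSGL1hi against Naive and 1, 10 and 13 in CD62Llo PSGL1lo against Naive. The 34 members whose probe set name carries no suffix, designed to match a single transcript, held 12, 9 and 12 of the lower calls (CD62Lhi PSGL1hi, CD62Llo PSGL1hi and CD62Llo PSGL1lo against Naive). The 70 members with a suffix held 6, 5 and 11. The median difference from Naive was similar in both, -0.15, -0.18 and -0.21 without a suffix and -0.16, -0.16 and -0.26 with one. The medians were thus alike while the share of calls was not. The share of lower calls among all probe sets with and without a suffix is not given here. Whether this contrast is particular to the members was not tested.

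The 110 probe sets that name a ribosomal protein gene beside other symbols were not used to choose members and gave a separate reading of the same protein family on the same arrays. They had 14 lower calls in CD62Lhi PSGL1hi against Naive, 15 in CD62Llo PSGL1hi and 16 in CD62Llo PSGL1lo, with 0 higher in each. These are 12.7%, 13.6% and 14.5% of them. Of all probe sets 8.66%, 8.16% and 10.6% were lower, and 17.3%, 17.3% and 20.1% were called in either direction. The median log2 differences of the 110 were -0.15, -0.14 and -0.24. On CD62Llo PSGL1lo replicate 2 their median log2 ratio was -0.38, against 0.02 and 0.01 on the other arrays of that group. Fau and Rsl24d1, whose symbols the name rule does not cover, gave differences between -0.26 and -0.08, none passing.

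Other genes of ribosome production and translation were taken from lists, each gene by 1 probe set; over all 18193 such genes 19.2%, 19% and 21.9% passed in CD62Lhi PSGL1hi, CD62Llo PSGL1hi and CD62Llo PSGL1lo against Naive, and 9.47%, 9.15% and 11.5% were lower. Ribosome biogenesis genes, whose products cut, modify and fold rRNA and assemble the subunits, were lower for 30, 20 and 25 of 60 and higher for 1 in each. Their median differences were -0.42, -0.30 and -0.32. These medians lie below those of the ribosomal proteins themselves, a difference that was not tested.

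Within it, Gnl3 (nucleostemin) read 1.53, 1.56 and 1.49 in Naive and 0.863 to 1.15 in the effector groups, with differences of -0.73, -0.64 and -0.58. Tsr1 and Rrp12, both needed to mature the small subunit, gave -0.88, -0.69 and -0.88, and -0.86, -0.62 and -0.84. Bysl, a small subunit assembly factor, was lowest in CD62Llo PSGL1lo, with differences of -1.06 from Naive and -0.56 from CD62Llo PSGL1hi (limma adjusted p = 6.26e-06 and 0.00461). Wdr12, of the PeBoW complex that matures the large subunit, read 1.23, 1.27 and 1.16 in Naive, 0.573 to 0.843 in the PSGL1hi groups and 1.46, 1.37 and 1.27 in CD62Llo PSGL1lo. Its difference between CD62Llo PSGL1lo and CD62Lhi PSGL1hi was 1.03 (limma adjusted p = 2.12e-05). The gene called higher was Rrp1b in both PSGL1hi groups (0.58 and 0.77, with -0.05 in CD62Llo PSGL1lo) and Ubtf, a factor of rRNA transcription, in CD62Llo PSGL1lo (0.42, limma adjusted p = 0.0266).

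Regulators of ribosomal protein mRNA moved in both directions, 5 lower and 4 higher, 4 and 1, and 7 and 2 of 37 in the same order. Myc, which drives transcription of ribosomal protein and biogenesis genes, read 2.59, 2.19 and 2.19 in Naive and 0.651 to 1.36 in the effector groups, with differences of -1.06, -1.28 and -1.63. Sesn1, an inhibitor of mTORC1, read 4.97, 4.67 and 4.34 in Naive and 0.703 to 1.07 in the effector groups, with differences of -2.19, -2.36 and -2.55. Mlst8, a subunit of mTORC1, gave -0.54, -0.73 and -0.59. Larp1 gave -0.37, -0.25 and -0.68; it was also lower in CD62Llo PSGL1lo than in CD62Llo PSGL1hi (-0.42, limma adjusted p = 0.00712), and the value of CD62Llo PSGL1hi against Naive did not pass. Among the genes called higher were Mxd4, a Max partner that opposes Myc, with 0.55, 0.70 and 0.56 (limma adjusted p = 0.0398, 0.0102 and 0.0314), Rptor, a subunit of mTORC1, in CD62Lhi PSGL1hi (0.46, limma adjusted p = 0.0201), and Eif4ebp1, a translation repressor and mTORC1 substrate, in CD62Llo PSGL1lo (0.65, limma adjusted p = 0.004).

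Elongation factors and other TOP mRNAs were lower for 3, 1 and 5 of 17 and higher for 1, 0 and 0. Pabpc1, the poly(A)-binding protein, gave -0.52, -0.41 and -0.63, of which the second did not pass, and Hnrnpa1 -0.93, -0.67 and -0.78. Eef1a1, the most abundant elongation factor, stayed between 0.941 and 1.04 on all 12 arrays. Vim, a TOP mRNA outside translation, was lowest in CD62Llo PSGL1lo, with differences of -1.04 from Naive, -1.17 from CD62Llo PSGL1hi and -1.44 from CD62Lhi PSGL1hi, all passing. Initiation factors had 2, 1 and 1 lower and 0, 0 and 1 higher of 26, the last being Eif4e, the cap-binding protein (0.52).

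Mitochondrial ribosomal proteins, encoded in the nucleus and built into a separate ribosome, had 9, 6 and 1 lower and 2, 1 and 2 higher of 76. Mrps6 read 0.550, 0.484 and 0.439 in Naive and 0.940 to 1.65 in the effector groups, with differences of 1.22, 1.01 and 1.49. Mrps11 ran the other way, with -0.54, -0.57 and -0.53. Between CD62Llo PSGL1lo and CD62Llo PSGL1hi this list had 3 higher and 0 lower (9.61% of all genes passed in either direction).

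**Figure D5:**
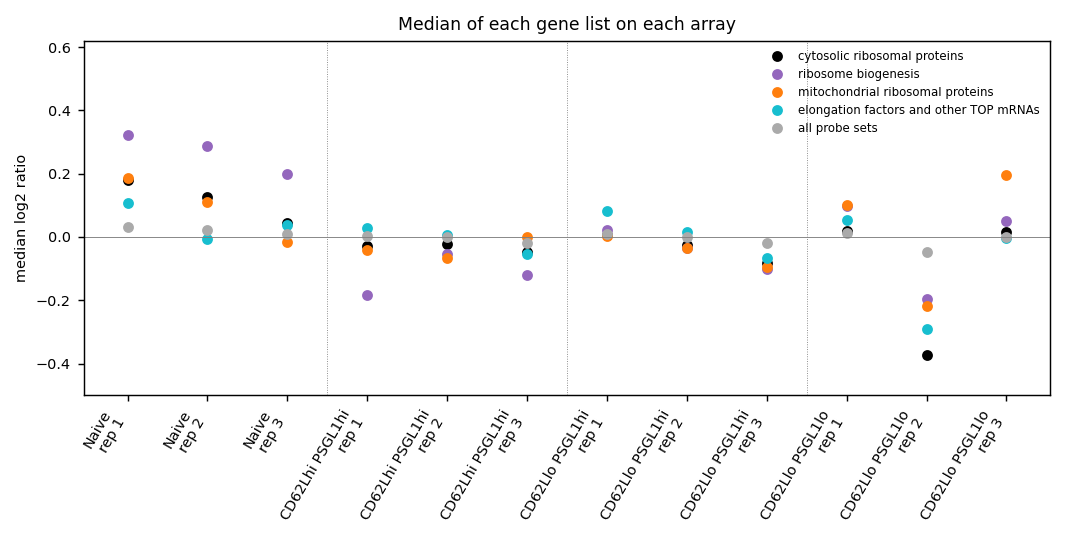
Median log2 ratio (vertical axis) of 4 gene lists and of all probe sets on each of the 12 arrays (horizontal axis, by population). The cytosolic ribosomal proteins (black) reach 0.18 on a Naive array and -0.37 on CD62Llo PSGL1lo replicate 2, and the ribosome biogenesis list (purple) lies highest on the 3 Naive arrays.

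Markers were checked in the same files. Cd44 had mean ratios of 0.079 in Naive and 0.870 to 1.27 in the effector groups, and Selplg 0.133 in CD62Llo PSGL1lo and 0.993 to 1.10 elsewhere, as the gates require. Cd3d, Cd3e and Cd4, the CD4 T cell genes with a usable probe set, had mean ratios between 0.742 and 1.16. Cd4 was higher than Naive in CD62Llo PSGL1lo and CD62Llo PSGL1hi (log2 difference 0.64 and 0.65, limma adjusted p = 0.00015 and 0.00018). It was also higher in both than in CD62Lhi PSGL1hi (0.59 in each, limma adjusted p = 0.000621 and 0.00456). Cd3e was higher than Naive in CD62Llo PSGL1hi only (0.31, limma adjusted p = 0.0189), and Cd3d passed in no comparison. Of the 6 macrophage, monocyte and neutrophil genes, S100a8 and S100a9 had mean ratios of 13.1 and 13.4 in Naive and 0.845 to 1.07 in the effector groups, Lyz2 had 1.80 and 0.704 to 0.922, Csf1r and Adgre1 did not differ by the test, and Cd68 was lowest in Naive, 0.206. The summed level of this list cannot be formed from ratios; its median ratio per array was 1.39 to 1.53 in Naive and 0.612 to 1.23 in the effector groups. None of its genes can be said to be at 0 in these values. Its median, like that of the ribosomal proteins, was highest on the Naive arrays. Among the effector arrays it was lowest, 0.612, on CD62Llo PSGL1lo replicate 3, where the members' median log2 ratio was 0.02. The part of this list in the ribosomal protein values was not tested. Dividing-cell genes were highest in CD62Lhi PSGL1hi, where 5 of 6 were above Naive and Mki67 had a mean ratio of 3.06 against 0.690 to 1.15 elsewhere; their part in the ribosomal protein values was not tested either. Of 4 plasma cell genes, Jchain was higher than Naive in each effector group, by 3.13, 3.31 and 2.59 on the log2 scale, and Sdc1 in CD62Lhi PSGL1hi by 1.47. The median ratio of that list per array was 0.871 to 0.914 in Naive and 0.880 to 1.48 in the effector groups. Of 5 B cell genes, 3 were lower in CD62Llo PSGL1lo than in Naive, Ms4a1 (mean ratio 0.332 against 1.32), Cd79b (log2 difference -0.68) and Blk (-0.40), and Cd79b was higher in both PSGL1hi groups (0.50 and 0.35). Blk was lower in CD62Llo PSGL1hi (-0.43). The median ratio of the B cell list was 1.05 to 1.16 in Naive and 0.814 to 1.21 in the effector groups. The part of these lists in the ribosomal protein values was not tested.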

How the data were processed

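Total RNA of 12 sorted samples was hybridised to Affymetrix Mouse Genome 430 2.0 arrays. Per the submitters' processing notes the authors used MAS5 (version not given). The deposited values are a linear ratio, found from the values: the median over the 12 arrays lay within 0.002 of 1 for 99.7% of probe sets. Brightness, detection and background were not used here, so precision is limited by the number of arrays. The 64 array controls were left out, and symbols came from the platform annotation, updated by Entrez ID to RefSeq names (48 of 48 member genes matched).

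Log2 of the ratio was fitted with limma 3.58.1 (lmFit, eBayes, R 4.3.3) on all 45037 probe sets and 12 arrays, with 1 mean per population, moderated contrasts, an F test, two-sided, and Benjamini-Hochberg adjustment over all probe sets at 0.05. The fit was tested on simulated data. Values after ± are standard errors of the log2 difference. For gene lists, 1 probe set per gene was kept, without an a, s or x suffix where possible. No column of another series was present.

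Members, lists and alternatives were chosen with earlier results of these data known. Named members were the 8 largest called rises and falls without overlap per comparison, the 10 of smallest F test p, and fixed paralogues, stalk and regulatory proteins; of other lists, up to 4 genes of smallest p per comparison; Eef1a1, Ubtf, Eif4ebp1 and members counted beside these were named after their values were seen. Marker lists for dendritic and erythroid cells had 0 or 1 gene called per comparison. The alternatives were quantile normalization, median centring, array weights, replicate block, 1 probe set per gene, no suffixed probe sets, only the compared populations, and each array left out. Single members were followed only in the 17 alternatives per comparison that keep all probe sets, so not with 1 probe set per gene or without suffixed probe sets.

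Same-numbered arrays of different effector groups correlated (0.138 to 0.451, all pairs above 0.1), so the replicate numbers pair the effector arrays; with Naive the correlations were -0.082 to 0.157 and do not pair. The pairing comes from these correlations and the design text's independent sorts.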

Additional observations from a re-analysis of the deposited data

How the results depend on the processing

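Over the members, the 12 fits that each leave out 1 array gave 11 to 29 calls in CD62Llo PSGL1lo against Naive, 11 to 26 in CD62Llo PSGL1hi against Naive, 16 to 34 in CD62Lhi PSGL1hi against Naive, 3 to 5 in CD62Llo PSGL1lo against CD62Lhi PSGL1hi, 1 to 2 in CD62Llo PSGL1lo against CD62Llo PSGL1hi, 0 to 0 in CD62Llo PSGL1hi against CD62Lhi PSGL1hi and 10 to 27 by the F test (20 with all arrays). The lowest counts against both CD62Llo groups and in the F test came without Naive replicate 2. The highest of CD62Lhi PSGL1hi and CD62Llo PSGL1hi came without CD62Llo PSGL1lo replicate 2. Among these fits, shares of all probe sets are given above only for the latter. In the others a changed count need not be particular to the members.

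The members' median differences ranged from -0.319 to -0.100 in CD62Llo PSGL1lo against Naive, -0.195 to -0.130 in CD62Llo PSGL1hi against Naive, -0.182 to -0.109 in CD62Lhi PSGL1hi against Naive, -0.132 to 0.0485 in CD62Llo PSGL1lo against CD62Lhi PSGL1hi, -0.145 to 0.0496 in CD62Llo PSGL1lo against CD62Llo PSGL1hi and -0.0141 to 0.0320 in CD62Llo PSGL1hi against CD62Lhi PSGL1hi.

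CD62Llo PSGL1lo against CD62Llo PSGL1hi had 1 call in place of 2 with quantile normalization, median centring, 1 probe set per gene, no suffixed probe sets and only the compared populations. Quantile normalization gave 12 calls in CD62Llo PSGL1lo against Naive, 1 higher and 11 lower. Array weights gave 27 in CD62Llo PSGL1hi against Naive. With the replicate block, CD62Llo PSGL1hi against CD62Lhi PSGL1hi had 1, CD62Llo PSGL1lo against CD62Lhi PSGL1hi 7 and CD62Llo PSGL1hi against Naive 22. Only the compared populations gave 2 in CD62Llo PSGL1lo against CD62Lhi PSGL1hi, 13 in CD62Llo PSGL1lo against Naive and 30 in CD62Llo PSGL1hi against Naive. Fewer members were counted with 1 probe set per gene (48: 13 by the F test, 15 in CD62Llo PSGL1lo and 11 in CD62Lhi PSGL1hi against Naive) and without suffixed probe sets (34: 12, 12 and 12, and 9 in CD62Llo PSGL1hi against Naive). The share of all probe sets called under these alternatives is not given here, so a changed count need not be particular to the members. The cause was not tested otherwise. Of the named members' values under the alternatives, 4580 kept their side of the threshold, 46 gained a call and 66 lost it; 0 called values changed sign, and signs of values never called were not counted.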
